A study of Homo sapiens with 4 samples.

Results

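The genes described here are the nuclear genes for subunits of the oxidative phosphorylation machinery, chosen as protein-coding genes whose symbols follow the NDUF, UQCR, COX and ATP5 subunit names. The rule found 81 genes of 60612 in the tables, 37 of complex I, 9 of complex III, 15 of complex IV and 20 of complex V. They were followed through 4 poly(A)-selected, paired-end RNA sequencing libraries: HCT116 with AVEN overexpression (OE), HCT116 wildtype for AVEN (WT), RKO OE and RKO WT. HCT116 and RKO are established human colorectal cancer cell lines, and AVEN encodes an inhibitor of caspase activation. The study compared OE with WT in each line. The labels do not say how AVEN was overexpressed, whether cells were a pool or a clone, or what the WT cells received.

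Oxidative phosphorylation couples the oxidation of NADH and succinate to the making of ATP at the inner mitochondrial membrane. Complexes I, III and IV pass electrons to oxygen and pump protons out of the matrix, and complex V, the ATP synthase, makes ATP as the protons flow back. The mitochondrial genome encodes a few hydrophobic subunits of these complexes, so every complex is assembled from products of both genomes. Symbols do not follow the complexes perfectly. NDUFA4 carries a complex I name but is associated with complex IV, and COX4I1, NDUFAB1 and CYC1 are subunits whose symbols lie outside the patterns.

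Levels are FPKM (fragments scaled by transcript length and library size) as deposited, and differences are log2((OE + 1)/(WT + 1)), a scale that understates the change of low genes. A gene was counted as measured in a line at a mean of at least 1 FPKM, which held for 11333 genes in HCT116 and 11007 in RKO. Each group has 1 library, so within a line nothing can be checked against replicates, and "higher" and "lower" speak of single libraries. Brackets give 95% counting intervals on estimated fragments. They cover counting error only. In these bulk libraries, fewer cells expressing a gene and less RNA per cell cannot be told apart. AVEN was at 2.96 FPKM in HCT116 OE, against 1.53 FPKM in HCT116 WT, and at 4.43 FPKM in RKO OE, against 1.34 FPKM in RKO WT. In both lines it was thus higher with OE, as the labels say. The epithelial marker EPCAM was at 85.1 and 79.2 FPKM in HCT116 OE and WT but at 2.02 and 3.08 FPKM in RKO OE and WT, and CDH1 was at 17.5 and 8.25 FPKM in HCT116 OE and WT but at 0.00834 and 0.00800 FPKM in RKO OE and WT. CDX2 was at 4.83 and 5.44 FPKM in HCT116 OE and WT. In RKO OE and WT it was at 4.83 and 4.38 FPKM. KRT18 was at 227 and 237 FPKM in HCT116 OE and WT, and at 71.8 and 37.4 FPKM in RKO OE and WT. KRT8 and KRT19 were lower in both RKO libraries than in both HCT116 libraries. Of the epithelial list, 6 of 11 genes were measured in HCT116 and 4 of 11 in RKO. Of the markers of fibroblasts, endothelium, blood and muscle, COL1A1 in HCT116 was the 1 measured. Genes encoded in mitochondria made up 45.6% and 44.7% of all FPKM in HCT116 OE and WT, and 30.3% and 32.8% in RKO OE and WT.

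Of the 81 genes, 74 were measured in each line, and they were abundant transcripts. Between 71 and 72 of the 74 lay above the median of all measured genes in every library. That median was 4.93 to 5.51 FPKM, against a median of 29.1 to 34.2 FPKM for the 74. ATP5F1B, the catalytic beta subunit of the ATP synthase, had the highest level, at 392 FPKM in HCT116 OE, 412 FPKM in HCT116 WT, 447 FPKM in RKO OE and 396 FPKM in RKO WT. NDUFS5, an accessory subunit of complex I, followed at 295, 349.9, 368 and 389 FPKM in the same libraries. COX8A, a small subunit of complex IV, was at 252, 283, 338 and 262 FPKM. These were the leading genes of their complexes in all 4 libraries, and UQCRH, the hinge protein of complex III, led its own complex at 175, 190.1, 213 and 219 FPKM. At the other end, NDUFA5, an accessory complex I subunit, was at 1.80, 2.48, 2.24 and 2.51 FPKM, the lowest of the 74 in each library. Levels of genes within a complex thus differed far more than the levels of a gene between libraries.

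**Figure D1:**
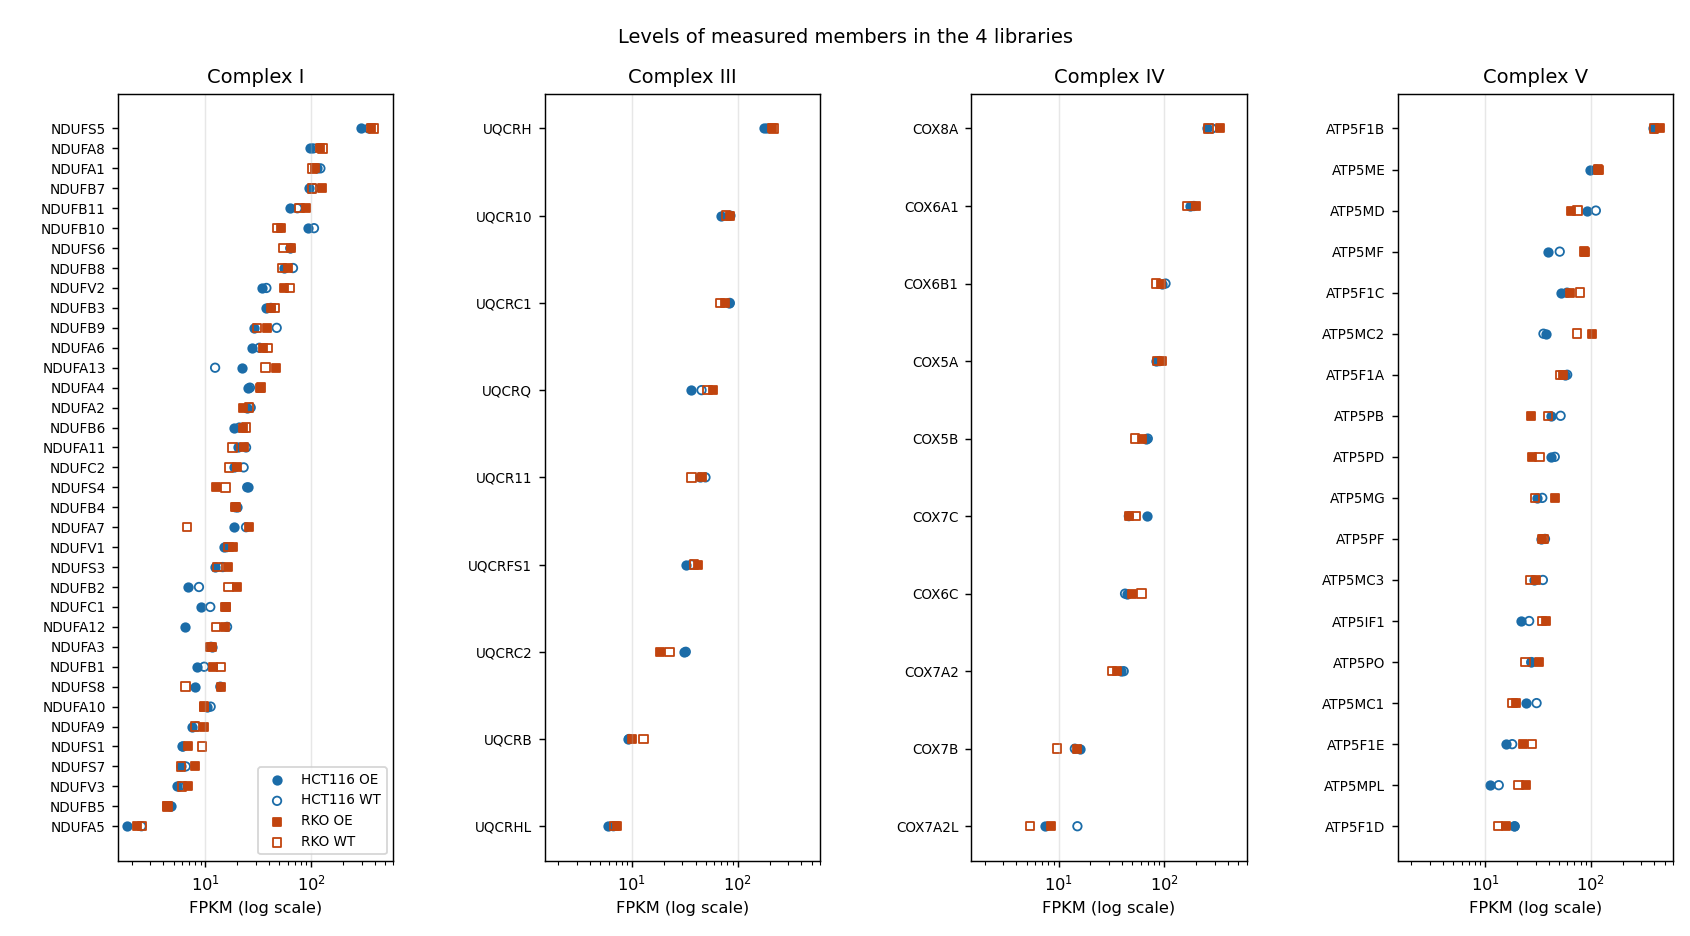
FPKM on a log axis for measured genes, by complex, with 1 point per library: filled circles HCT116 OE, open circles HCT116 WT, filled squares RKO OE, open squares RKO WT. The span between genes is far wider than the span between libraries of a gene, with ATP5F1B at 392 to 447 and NDUFA5 at 1.80 to 2.51 FPKM, and NDUFA7 in RKO WT and NDUFA13 in HCT116 WT lie away from their other libraries.

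The 7 genes that were not measured are mostly tissue-restricted forms. COX6A2 and COX7A1, the isoforms of heart and skeletal muscle, COX7B2 and COX8C, known from testis, and ATP5MGL were each listed at 0.0001 FPKM, the lowest value in the tables, in all 4 libraries. A count of 0 allows 3 fragments, which for COX6A2 allows 0.365, 0.406, 0.385 and 0.370 FPKM in HCT116 OE, HCT116 WT, RKO OE and RKO WT. COX6B2, the testis form of COX6B, was at 0.328 and 0.345 FPKM in HCT116 OE and WT and at 0.0516 and 0.137 FPKM in RKO OE and WT. It gave at most 0.345% of the summed COX6B1 and COX6B2 level, and COX6B1 gave the rest. The readthrough gene ATP5MF-PTCD1 stayed at or below 0.0594 FPKM. The isoforms of these complex IV families that were measured were COX6A1, COX6B1, COX7A2 with COX7A2L, COX7B and COX8A.

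In HCT116, most of the genes were slightly lower with AVEN overexpression. Of the 74, 64 had a difference below 0, where 48.6% of all measured genes did, and 10 had one above 0, where 51.4% did. Their median difference was -0.13, against 0.01 for all genes. Their summed level was 3735 FPKM in HCT116 OE, against 4140.2 FPKM in HCT116 WT, a ratio of 0.902. In RKO, most were slightly higher. There 50 of the 74 had a difference above 0, where 40.7% of all genes did, and 24 had one below 0, where 59.3% did, with a median of 0.13, against -0.09 for all genes. The summed level was 4347 FPKM in RKO OE, against 4037 FPKM in RKO WT, a ratio of 1.08. As a share of all FPKM, the genes made up 0.989% and 1.09% in HCT116 OE and WT, and 1.26% and 1.18% in RKO OE and WT. Outside mitochondrially encoded genes the shares were 1.82% and 1.96% in HCT116 OE and WT, and 1.81% and 1.75% in RKO OE and WT. Directions among all genes depended on level. From a mean of 5 FPKM, 57.9% of all genes were below 0 in HCT116 (median -0.04) and 50.8% in RKO (median -0.01). At that level 63 of 72 members were below 0 in HCT116 and 23 of 72 in RKO.

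Large single differences were few. At least 1.5-fold on the log scale, 4 genes were lower in HCT116 OE (NDUFA12, COX7A2L, NDUFS8 and NDUFB9), where 3.22% of all genes were, and 1 was higher (NDUFA13), where 3.26% were. In RKO OE, 3 were higher (NDUFA7, NDUFS8 and ATP5MG), where 4.11% of all genes were, and 0 were lower, where 8.43% were. The counting interval of the fold lay below 1 for 33 genes in HCT116, where 15.8% of all genes did so, and above 1 for 2 genes, where 15.3% did. In RKO it lay above 1 for 33 genes, against 19.5% of all genes, and below 1 for 12, against 31.9%. These shares are not like for like, because intervals narrow with level. The 74 genes had medians of 29.1 to 34.2 FPKM, against 4.93 to 5.51 FPKM for all genes, so smaller folds exclude 1 among them. In the authors' deposited table, NDUFA12 in HCT116 (p = 0.042, q = 1) and NDUFA7 in RKO (p = 0.00238, q = 0.339) were the members with p under 0.05, where 1.5% and 2.2% of the measured genes of HCT116 and RKO had such a p.

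**Figure D2:**
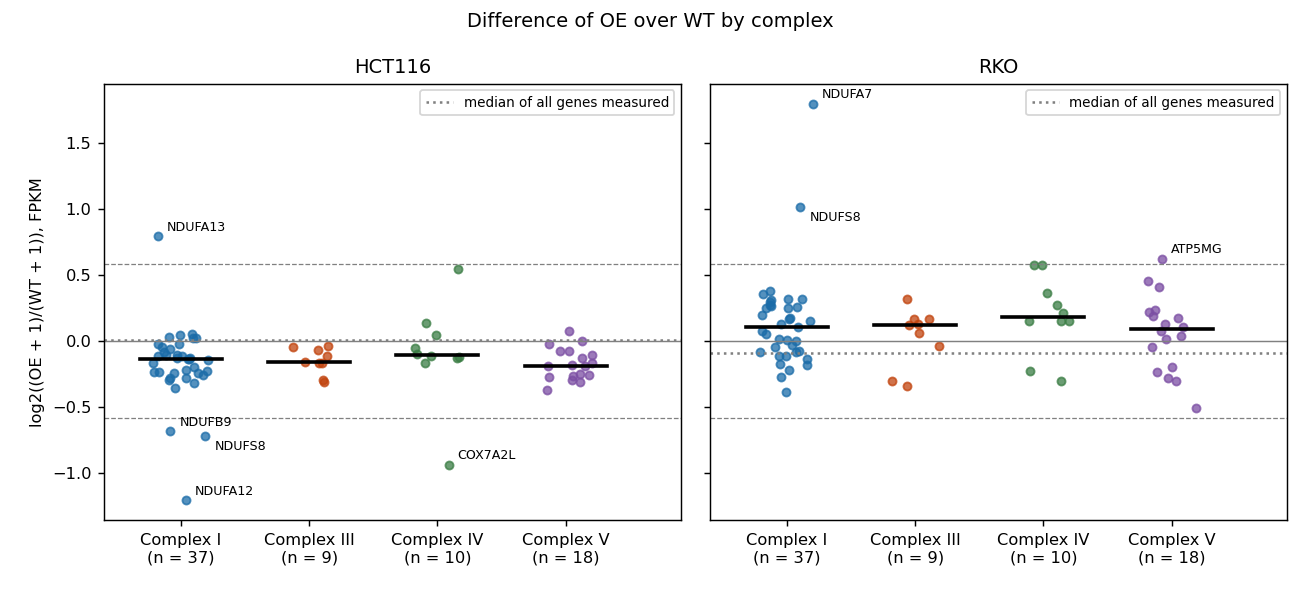
Difference of OE over WT, log2((OE + 1)/(WT + 1)) of FPKM, for the measured genes of each complex in HCT116 (left) and RKO (right), 1 point per gene. Black bars mark the median of a complex, dotted lines the median of all measured genes and dashed lines 1.5-fold; all 4 complex medians lie below 0 in HCT116 and above 0 in RKO.

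Opposite directions in the lines were common among all genes too, and the 74 genes differed in which way these ran. Lower in HCT116 OE and higher in RKO OE was their most frequent pattern, where the reverse was the most frequent among all genes. A difference below 0 in HCT116 together with one above 0 in RKO was found for 44 of the 74 genes, where 25.4% of the 9887 genes measured in both lines had this pattern. The reverse held for 4, where 33.5% of all genes had it. Another 20 were below 0 in both lines, where 25.4% of all genes were, and 6 were above 0 in both, where 15.7% were. Because intervals narrow with level, the interval counts that follow are not like for like with the shares of all genes. For 19 genes the counting intervals lay on opposite sides of 1, where 13.9% of all genes had this. Of these, 18 were lower in HCT116 OE and higher in RKO OE, a pattern of 7.08% of all genes, and COX7C had the reverse, which 6.8% of all genes had. Intervals lay below 1 in both lines for 5 genes, ATP5F1C, ATP5F1E, ATP5MD, ATP5PB and NDUFS5, where 3.66% of all genes had this, and above 1 in both for 1, NDUFA13, where 2.5% had it. Some of these directions turned under another setting. The RKO difference of NDUFS5 was 0.01 when centred on the median of all genes. With GC content and length taken into account, the RKO difference was 0.12 for ATP5F1E and 0.01 for ATP5MD, and the HCT116 difference of NDUFA13 was -0.37 when summed with its readthrough gene. The difference between the lines in their response could not be tested with 1 library per group.

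**Figure D3:**
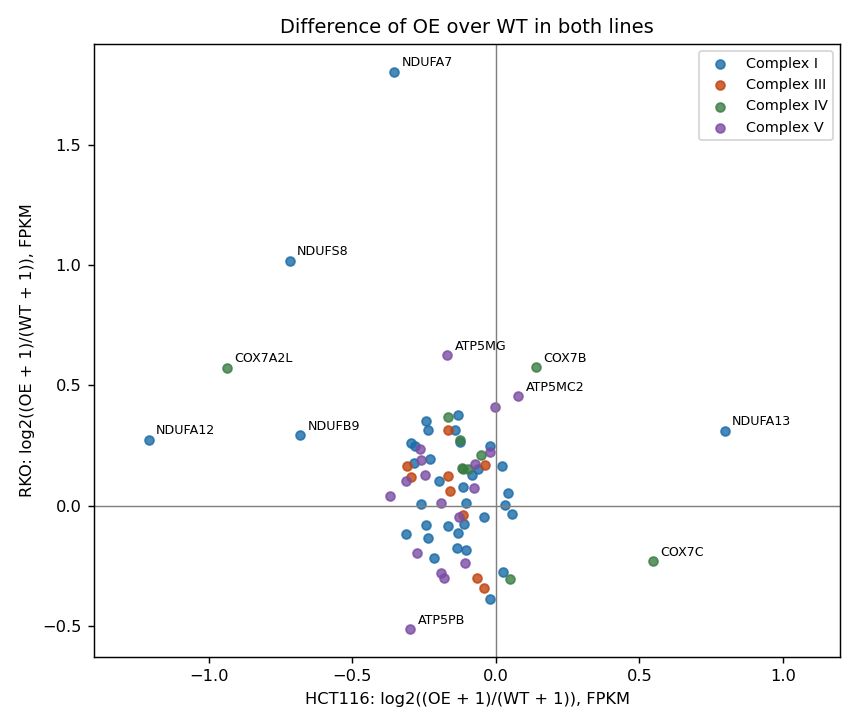
Difference of OE over WT in HCT116 (horizontal) and in RKO (vertical), both log2((OE + 1)/(WT + 1)) of FPKM, 1 point per measured gene, coloured by complex. The upper left field, lower in HCT116 OE and higher in RKO OE, holds 44 of the 74 genes, with NDUFA7, NDUFS8, COX7A2L, NDUFA12 and NDUFB9 farthest out.

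A single fit over both lines called none of the members. With limma on log2(FPKM + 1), line as a term and the lines serving as replicates, 14 of 11525 genes (0.121%) passed an adjusted p of 0.05, Benjamini-Hochberg over all genes. Of the 74 genes, 0 passed. At an unadjusted p under 0.05 there was 1, NDUFA13 (log2 0.55, SE 0.23, limma adjusted p = 1), where 3.51% of all genes reached that level. NDUFA13 shares exons with a readthrough gene, and its HCT116 difference was -0.37 when summed with that gene. The fit was not run on that sum. The median coefficient was -0.03 for the 74 genes and -0.04 for all genes. On simulated data with 200 of 11525 genes changed alike in both lines, this fit recovered 79% of log2 changes of 1 and 100% of changes of 2. Simulated noise had the pooled spread at each gene's level and no spread particular to a gene. Recovery in the data may therefore be lower. Genes with opposite directions in the lines were not simulated. Their shared coefficient is drawn towards 0 and their error grows, as in NDUFS8 (coefficient 0.15, SE 0.34), so the fit cannot speak on them. NDUFB1 had a difference of -0.22 in both lines and still an SE of 0.23. With line as a term, the error reflects how far OE differences disagree between HCT116 and RKO. It rests mostly on that disagreement pooled over genes, and less on a gene's own. No replicates of a group enter it. Separate cultures are not mentioned in the labels. The p-values thus set a coefficient against that mostly pooled disagreement between these samples, part of which may be technical. AVEN itself had a coefficient of 0.93 (SE 0.25, limma adjusted p = 0.489).

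Complex I, which oxidises NADH, had 31 of 37 genes below 0 in HCT116 (median -0.13) and 24 of 37 above 0 in RKO (median 0.11). Its summed level was 1338 FPKM in HCT116 OE, against 1523 FPKM in HCT116 WT, and 1591 FPKM in RKO OE, against 1511 FPKM in RKO WT. Its 29 accessory subunits had medians of -0.17 in HCT116 and 0.08 in RKO.

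NDUFS8, a core subunit that binds iron-sulfur clusters (chr11:68030617-68036644 on GRCh38, plus strand), showed the clearest opposition among the core genes. It was at 8.01 FPKM in HCT116 OE, against 13.8 FPKM in HCT116 WT, a fold of 0.579 (0.460 to 0.726). In RKO it was at 14.2 FPKM in OE, against 6.50 FPKM in WT, a fold of 2.18 (1.72 to 2.79). HCT116 WT and RKO OE were thus its high libraries, and HCT116 OE and RKO WT its low ones. NDUFS7, also a core iron-sulfur subunit, was at 5.86 FPKM in HCT116 OE, against 6.51 FPKM in HCT116 WT, and at 7.92 FPKM in RKO OE, against 5.87 FPKM in RKO WT. Its interval excluded 1 in RKO alone (fold 1.35, 1.12 to 1.64). NDUFS1, the largest subunit, had 6.05 and 6.14 FPKM in HCT116 OE and WT, and 6.90 and 9.32 FPKM in RKO OE and WT. It had the lowest complex I difference in RKO, at -0.39, and NDUFV2 was the other core gene below 0 there.

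NDUFA12, an accessory subunit, had the lowest difference of the 74 genes in HCT116, at -1.21. Its level was 6.36 FPKM in HCT116 OE, against 16.0 FPKM in HCT116 WT, a fold of 0.397 (0.294 to 0.527). In RKO it was at 15.4 FPKM in OE, against 12.6 FPKM in WT (fold 1.23, 0.976 to 1.56). The HCT116 OE library alone was low, and the other 3 libraries lay between 12.6 and 16.0 FPKM. NDUFB9, another accessory subunit, was at 29.03 FPKM in HCT116 OE, against 47.2 FPKM in HCT116 WT (fold 0.615, 0.554 to 0.683), and at 38.1 FPKM in RKO OE, against 30.9 FPKM in RKO WT. Among accessory genes with small differences, NDUFA3 was at 11.7 and 11.3 FPKM in HCT116 OE and WT and at 11.5 and 11.01 FPKM in RKO OE and WT. NDUFB4 was at 19.96 and 19.2 FPKM in HCT116 OE and WT and at 18.9 and 19.4 FPKM in RKO OE and WT.

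The promoter of NDUFA12 is shown because this gene had the lowest difference in HCT116 and because 2 of the motifs searched stand in it. The stretch runs 130 bases before to 30 after the start annotated by RefSeq on GRCh38.p14, at chr12:95003668-95003827 (minus strand), read 5′ to 3′. Capitals mark the NRF1 motif (GCGCA, any base, then GCGC) and the YY1 motif (AAGATGG), searched on both strands.
NDUFA12: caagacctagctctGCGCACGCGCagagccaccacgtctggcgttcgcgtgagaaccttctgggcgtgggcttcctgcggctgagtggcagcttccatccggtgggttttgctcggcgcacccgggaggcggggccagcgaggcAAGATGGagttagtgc

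NDUFA7 and NDUFA13, the members with the highest difference in RKO and in HCT116, each share exons with an annotated readthrough gene. NDUFA7, an accessory subunit (chr19:8308768-8321396, minus strand), was at 25.8 FPKM in RKO OE, against 6.67 FPKM in RKO WT, a fold of 3.86 (2.98 to 5.08). In HCT116 it was at 18.7 FPKM in OE, against 24.2 FPKM in WT. The readthrough gene AC010323.1 was at 3.07 FPKM in RKO OE, against 44.1 FPKM in RKO WT, and at 2.12 and 2.59 FPKM in HCT116 OE and WT. Summed, the pair stood at 28.8 FPKM in RKO OE, against 50.7 FPKM in RKO WT, so the difference of the sum was -0.79, opposite to that of NDUFA7 alone.

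NDUFA13, also an accessory subunit and known as GRIM-19 (chr19:19515736-19529054, plus strand), was at 22.2 FPKM in HCT116 OE, against 12.3 FPKM in HCT116 WT, a fold of 1.80 (1.49 to 2.17). In RKO it was at 46.4 FPKM in OE, against 37.2 FPKM in WT. Its readthrough gene AC011448.1 was at 11.05 FPKM in HCT116 OE, against 30.8 FPKM in HCT116 WT, and at 3.68 and 2.26 FPKM in RKO OE and WT. The sum in HCT116 was 33.2 FPKM in OE, against 43.2 FPKM in WT, a difference of -0.37, where NDUFA13 alone had 0.80. In each case 1 WT library had a low gene and a high readthrough partner. The sources used here do not give how fragments were divided between a gene and its partner, and the part of that step in these values was not tested.

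**Figure D4:**
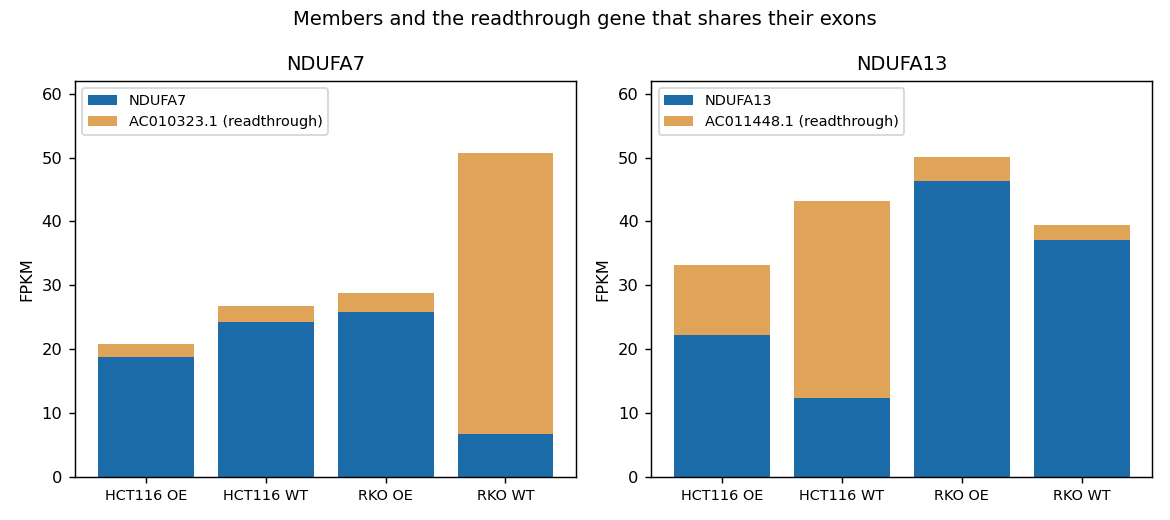
FPKM of NDUFA7 (left) and NDUFA13 (right) in blue, stacked with the readthrough gene that shares their exons in orange, for HCT116 OE, HCT116 WT, RKO OE and RKO WT. The readthrough gene takes most of the stack in RKO WT at NDUFA7 (44.1 FPKM) and in HCT116 WT at NDUFA13 (30.8 FPKM).

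Complex III, which passes electrons from ubiquinol to cytochrome c, had 9 of 9 genes below 0 in HCT116 (median -0.16) and 6 of 9 above 0 in RKO (median 0.12). Its summed level was 486 FPKM in HCT116 OE, against 539 FPKM in HCT116 WT, and 555 FPKM in RKO OE, against 533 FPKM in RKO WT. With GC content and length taken into account, 8 of 9 were below 0 in HCT116, where 51.2% of all genes were. As deposited, the small subunits UQCR10, UQCR11 and UQCRQ had the largest gaps between the differences in the lines, and with the same correction UQCRFS1 did (0.41 in RKO and -0.28 in HCT116). UQCRQ was at 36.5 FPKM in HCT116 OE, against 45.5 FPKM in HCT116 WT (fold 0.804, 0.706 to 0.917), and at 58.4 FPKM in RKO OE, against 51.9 FPKM in RKO WT. UQCR10 was at 69.4 FPKM in HCT116 OE, against 85.3 FPKM in HCT116 WT (fold 0.813, 0.748 to 0.883), and at 84.0 FPKM in RKO OE, against 77.2 FPKM in RKO WT. UQCR11 was at 44.04 FPKM in HCT116 OE, against 49.5 FPKM in HCT116 WT, and at 45.5 FPKM in RKO OE, against 36.4 FPKM in RKO WT (fold 1.251, 1.11 to 1.41). These genes were lower in HCT116 OE and higher in RKO OE.

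The core proteins of complex III, which face the matrix, had opposite directions in RKO as deposited, and with GC content and length taken into account their RKO differences were close, 0.02 for UQCRC1 and -0.05 for UQCRC2. UQCRC1 was at 81.9 and 84.1 FPKM in HCT116 OE and WT and at 76.2 and 67.7 FPKM in RKO OE and WT. UQCRC2 was at 30.8 and 32.3 FPKM in HCT116 OE and WT but at 18.3 FPKM in RKO OE, against 22.7 FPKM in RKO WT (fold 0.804, 0.698 to 0.927). UQCRFS1, the Rieske iron-sulfur protein that carries electrons to cytochrome c1, was at 32.5 FPKM in HCT116 OE, against 36.6 FPKM in HCT116 WT, and at 42.3 FPKM in RKO OE, against 38.6 FPKM in RKO WT. UQCRB, a ubiquinone-binding subunit, was at 9.09 and 9.39 FPKM in HCT116 OE and WT and at 9.93 FPKM in RKO OE, against 12.8 FPKM in RKO WT. UQCRB had the lowest difference of the complex in RKO, -0.34, and the lowest GC content of its transcripts, 38.3%. With GC content and length taken into account its difference was 0.06. The near copy UQCRHL, which shares sequence with UQCRH, was at 5.88, 6.68, 7.19 and 6.85 FPKM in HCT116 OE, HCT116 WT, RKO OE and RKO WT. That was 3.04% to 3.40% of the summed level of both, and reads of the copies may be divided uncertainly.

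Promoters of complex III are shown because its 9 genes had 1 direction in HCT116 and because it held the highest share of NRF1 motifs. Each stretch runs 70 bases before to 30 after the start annotated by RefSeq on GRCh38.p14, 5′ to 3′ on the strand of the gene. Capitals mark matches on either strand to the NRF1 motif spelled out above, to CCGGAAG (ETS factors such as GABPA) and to AAGATGG (YY1). The stretches lie at chr22:29767299-29767398 (plus strand) for UQCR10, chr19:1605433-1605532 (minus strand) for UQCR11, chr3:48609617-48609716 (minus strand) for UQCRC1, chr16:21953291-21953390 (plus strand) for UQCRC2, chr19:29213122-29213221 (minus strand) for UQCRFS1, chr1:46303628-46303727 (plus strand) for UQCRH and chr5:132866572-132866671 (plus strand) for UQCRQ.
UQCR10: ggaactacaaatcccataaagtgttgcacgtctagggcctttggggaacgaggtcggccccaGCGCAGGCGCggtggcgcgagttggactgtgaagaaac
UQCR11: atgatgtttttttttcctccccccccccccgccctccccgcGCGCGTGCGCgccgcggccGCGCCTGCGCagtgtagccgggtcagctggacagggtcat
UQCRC1: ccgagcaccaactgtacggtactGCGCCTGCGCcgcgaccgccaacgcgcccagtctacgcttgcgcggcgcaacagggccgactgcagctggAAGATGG
UQCRC2: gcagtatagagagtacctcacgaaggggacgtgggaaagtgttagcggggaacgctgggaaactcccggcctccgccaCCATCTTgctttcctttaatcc
UQCRFS1: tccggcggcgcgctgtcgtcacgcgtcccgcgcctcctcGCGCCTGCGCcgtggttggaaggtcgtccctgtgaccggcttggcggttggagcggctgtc
UQCRH: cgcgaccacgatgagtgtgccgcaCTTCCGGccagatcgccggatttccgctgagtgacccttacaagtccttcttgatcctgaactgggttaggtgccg
UQCRQ: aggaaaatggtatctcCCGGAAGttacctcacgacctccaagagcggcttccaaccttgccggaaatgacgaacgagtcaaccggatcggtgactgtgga

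Each of the 7 sequences holds 1 or 2 matches. The NRF1 motif stands in UQCR10, UQCR11, UQCRC1 and UQCRFS1, with 2 separate matches in UQCR11. CCGGAAG and AAGATGG can share the letters AAG, but no matches overlap in the sequences shown. Over windows of 250 bases before to 50 after the start, 66 of the 81 genes had a promoter in the RefSeq table. Of these 66, 15 (22.7%) held the NRF1 motif, against 6.28% of 27305 promoters. CCGGAAG was found in 17 (25.8%), against 10.7% of all promoters, and AAGATGG in 15 (22.7%), against 6.06%. In complex III, 4 of 7 promoters (57.1%) held the NRF1 motif. At least 1 of the 3 motifs was in 37 promoters, 2 or 3 were in 9, and all 3 were in 1, that of ATP5ME. The 14 measured genes with the NRF1 motif had medians of -0.17 in HCT116 and 0.15 in RKO, and the 48 without it had -0.13 and 0.12. A match describes the letters and does not show binding.

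Complex IV, cytochrome c oxidase, had 7 of 10 measured genes below 0 in HCT116 (median -0.11) and 8 of 10 above 0 in RKO (median 0.18). Its summed level was 846 FPKM in HCT116 OE, against 896 FPKM in HCT116 WT, and 943 FPKM in RKO OE, against 812 FPKM in RKO WT, a ratio of 1.16 and the highest of the complexes. COX8A and COX6A1 carried most of that gap in FPKM. COX8A, given above, had folds of 0.890 (0.843 to 0.939) in HCT116 and 1.29 (1.23 to 1.36) in RKO. Its differences were -0.17 in HCT116 and 0.37 in RKO as deposited, and -0.07 and 0.17 with GC content and length taken into account. COX6A1 was at 174 FPKM in HCT116 OE, against 190.3 FPKM in HCT116 WT, and at 201 FPKM in RKO OE, against 166 FPKM in RKO WT. The subunits COX5A and COX5B, which lie on the matrix side, were at 83.2 and 67.4 FPKM in HCT116 OE, against 90.3 and 69.9 FPKM in HCT116 WT. In RKO they were at 94.8 and 61.3 FPKM in OE, against 85.0 and 52.7 FPKM in WT.

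COX7A2L, a COX7A relative that helps to join complexes III and IV into supercomplexes, had the lowest difference of complex IV in HCT116. It was at 7.40 FPKM in HCT116 OE, against 15.1 FPKM in HCT116 WT, a fold of 0.491 (0.408 to 0.591). In RKO it was at 8.49 FPKM in OE, against 5.38 FPKM in WT, a fold of 1.58 (1.26 to 1.99). Its share of the COX7A family was 16.1% in HCT116 OE, against 26.7% in HCT116 WT, and the close relative COX7A2 was at 38.6 and 41.3 FPKM in HCT116 OE and WT and at 35.9 and 32.2 FPKM in RKO OE and WT. The interval of COX7A2 included 1 in both lines, where that of COX7A2L excluded it in both. COX7C, a small subunit, ran the other way from most. It was at 68.0 FPKM in HCT116 OE, against 46.3 FPKM in HCT116 WT (fold 1.47, 1.33 to 1.63), and at 46.1 FPKM in RKO OE, against 54.2 FPKM in RKO WT (fold 0.851, 0.763 to 0.948). With GC content and length taken into account its RKO difference was 0.02, against -0.23 as deposited. COX7B was at 15.8 and 14.3 FPKM in HCT116 OE and WT, and at 14.9 FPKM in RKO OE, against 9.68 FPKM in RKO WT (fold 1.54, 1.203 to 1.98). COX7B, at 0.58, and COX7A2L, at 0.57, lay just below 1.5-fold on the log scale in RKO. COX6C was at 44.1 and 42.6 FPKM in HCT116 OE and WT and at 49.1 FPKM in RKO OE, against 60.9 FPKM in RKO WT, the lowest complex IV difference there (-0.30).

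Complex V, the ATP synthase, had 17 of 18 measured genes below 0 in HCT116 (median -0.19) and 12 of 18 above 0 in RKO (median 0.09). Its summed level was 1065 FPKM in HCT116 OE, against 1181 FPKM in HCT116 WT, and 1259 FPKM in RKO OE, against 1181.5 FPKM in RKO WT. The parts of the enzyme did not move alike in RKO. In the catalytic head and central stalk, ATP5F1A was at 56.7 and 59.8 FPKM in HCT116 OE and WT and at 54.2 and 51.3 FPKM in RKO OE and WT. ATP5F1C, the gamma subunit that turns inside the head, was at 52.5 FPKM in HCT116 OE, against 59.7 FPKM in HCT116 WT, and at 64.0 FPKM in RKO OE, against 79.1 FPKM in RKO WT (fold 0.810, 0.741 to 0.885). ATP5F1E, the epsilon subunit, was at 15.7 FPKM in HCT116 OE, against 18.1 FPKM in HCT116 WT, and at 22.8 FPKM in RKO OE, against 27.9 FPKM in RKO WT. In both lines these 2 stalk genes were lower in OE as deposited. With GC content and length taken into account, the RKO difference of ATP5F1E was 0.12 and that of ATP5F1C was -0.07. ATP5F1D, the delta subunit, was at 18.8 and 19.1 FPKM in HCT116 OE and WT and at 15.6 and 13.2 FPKM in RKO OE and WT.

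The peripheral stalk holds the head still against the membrane part. Its subunit ATP5PB had the lowest difference of the 74 genes in RKO, at -0.51. It was at 27.2 FPKM in RKO OE, against 39.2 FPKM in RKO WT (fold 0.694, 0.627 to 0.769), and at 42.0 FPKM in HCT116 OE, against 51.8 FPKM in HCT116 WT (fold 0.810, 0.744 to 0.882). Exons of ATP5PB overlap WDR77 on the opposite strand, which was at 16.5 FPKM in HCT116 OE, against 28.0 FPKM in HCT116 WT, and at 25.02 FPKM in RKO OE, against 21.6 FPKM in RKO WT. The sources used here do not say if strand was kept, so reads of the overlap cannot be told apart. ATP5PO, the stalk subunit that confers oligomycin sensitivity, was at 27.4 FPKM in both HCT116 libraries and at 32.5 FPKM in RKO OE, against 24.2 FPKM in RKO WT (fold 1.34, 1.17 to 1.54). These subunits of the stalk thus had opposite directions in RKO.

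In the membrane part, ATP5MG was at 46.1 FPKM in RKO OE, against 29.5 FPKM in RKO WT, a fold of 1.56 (1.39 to 1.75), and at 30.8 and 34.8 FPKM in HCT116 OE and WT. ATP5MF was at 39.1 FPKM in HCT116 OE, against 50.8 FPKM in HCT116 WT, the lowest complex V difference in HCT116 (-0.37), and at 88.9 and 86.4 FPKM in RKO OE and WT. ATP5ME and ATP5MD, the other high members of the membrane part, were at 98.2 and 92.2 FPKM in HCT116 OE, against 112 and 112 FPKM in HCT116 WT. In RKO OE they were at 118 and 65.3 FPKM, against 117 and 74.97 FPKM in RKO WT. ATP5IF1, which encodes the inhibitor that stops the enzyme from consuming ATP, was at 21.8 FPKM in HCT116 OE, against 26.1 FPKM in HCT116 WT, and at 37.7 FPKM in RKO OE, against 34.4 FPKM in RKO WT. It kept the direction that most members had in each line.

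The genes ATP5MC1, ATP5MC2 and ATP5MC3 encode the same mature c subunit of the proton-driven ring behind different import sequences. ATP5MC2 gave 41.2% of their summed FPKM in HCT116 OE, against 35.1% in HCT116 WT, and 67.2% in RKO OE, against 62.5% in RKO WT. It was at 37.7 and 35.7 FPKM in HCT116 OE and WT, and at 102 FPKM in RKO OE, against 74.4 FPKM in RKO WT (fold 1.38, 1.29 to 1.47). ATP5MC1 was at 24.5 FPKM in HCT116 OE, against 30.7 FPKM in HCT116 WT, and at 19.6 and 18.1 FPKM in RKO OE and WT. ATP5MC3 was at 29.3 FPKM in HCT116 OE, against 35.2 FPKM in HCT116 WT, and at 30.4 and 26.5 FPKM in RKO OE and WT. ATP5MC2 therefore took a larger share in OE than in WT in both lines, and a smaller one in HCT116 than in RKO.

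Between the lines, few genes stood clearly apart. In 2 genes both HCT116 libraries were at least 1.5-fold above both RKO libraries, where 11.3% of all genes were. NDUFB10, an accessory subunit, was at 92.4 and 106 FPKM in HCT116 OE and WT and at 51.7 and 48.0 FPKM in RKO OE and WT. NDUFS4, an accessory subunit needed to finish complex I assembly, was at 25.3 and 24.8 FPKM in HCT116 OE and WT and at 12.6 and 15.5 FPKM in RKO OE and WT. In 5 genes both RKO libraries were at least 1.5-fold above both HCT116 libraries, where 12.4% of all genes were, namely ATP5MC2, NDUFB2, ATP5MF, NDUFA13 and ATP5MPL. Summed with its readthrough gene, NDUFA13 left this group, at 33.2 and 43.2 FPKM in HCT116 OE and WT and at 50.0 and 39.4 FPKM in RKO OE and WT. NDUFB2 was at 6.89 and 8.69 FPKM in HCT116 OE and WT and at 19.9 and 16.5 FPKM in RKO OE and WT. ATP5MPL, a small membrane subunit, was at 11.04 and 13.5 FPKM in HCT116 OE and WT and at 24.6 and 20.7 FPKM in RKO OE and WT. Without a size limit, 16 genes were higher in both HCT116 libraries, where 29.6% of all genes were, and 29 in both RKO libraries, where 38.6% were. The lines stand in separately deposited tables, so these levels are set side by side only.

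GC content moved with the differences in RKO. Across the 74 genes, the Spearman correlation of the RKO difference with the mean GC content of a gene's annotated transcripts was 0.51, and over the 10971 measured genes with a GC value it was 0.54, a description across genes of 1 pair of libraries. In HCT116 the correlations were -0.06 and -0.11. With mean transcript length, the correlations over all genes were 0.20 in HCT116 and -0.18 in RKO. Over the 74 genes they were 0.04 and -0.05. The 74 had a median length of 756 bases, against 1466 for all genes in HCT116 and 1454 in RKO. The 25 genes with the highest GC content had a median of 0.21 in RKO with 24 above 0. The 24 in the middle had 0.07 with 16 above 0, and the 25 with the lowest GC content had -0.05 with 10 above 0. In HCT116 the same groups had medians of -0.14, -0.15 and -0.13. All genes within these ranges of GC content were not counted alongside. Single genes did not all follow this order. Of the 5 highest differences in RKO, NDUFA7 (GC content 55.2%) and NDUFS8 (62.4%) stood above ATP5MG (43.0%), COX7B (42.3%) and COX7A2L (44.8%), which have low GC content. After a correction for GC content and length fitted over all genes, the median of the 74 was 0.11 in RKO. There 54 were above 0 and 20 below, where 49.3% of all genes were below. In HCT116 the median was -0.11 with 59 below 0, where 51.2% of all genes were. The correction also moved the median of all genes, from -0.09 to 0.003 in RKO and from 0.007 to -0.007 in HCT116. The gap between the 74 and all genes was thus smaller after it in both lines. The corrected medians of complexes I, III, IV and V were 0.10, 0.08, 0.14 and 0.11 in RKO and -0.12, -0.08, -0.05 and -0.15 in HCT116. The opposite sides of 0 in the lines were thus kept for the median of every complex. Among named genes, the correction took the RKO difference of UQCRC2 to -0.05, of NDUFS1 to -0.08, of COX6C to -0.10 and of ATP5PB to -0.30, all nearer 0 than as deposited. It took COX7A2L to 0.83 and COX7B to 0.81, past 1.5-fold, and NDUFS8 to 0.79.

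**Figure D5:**
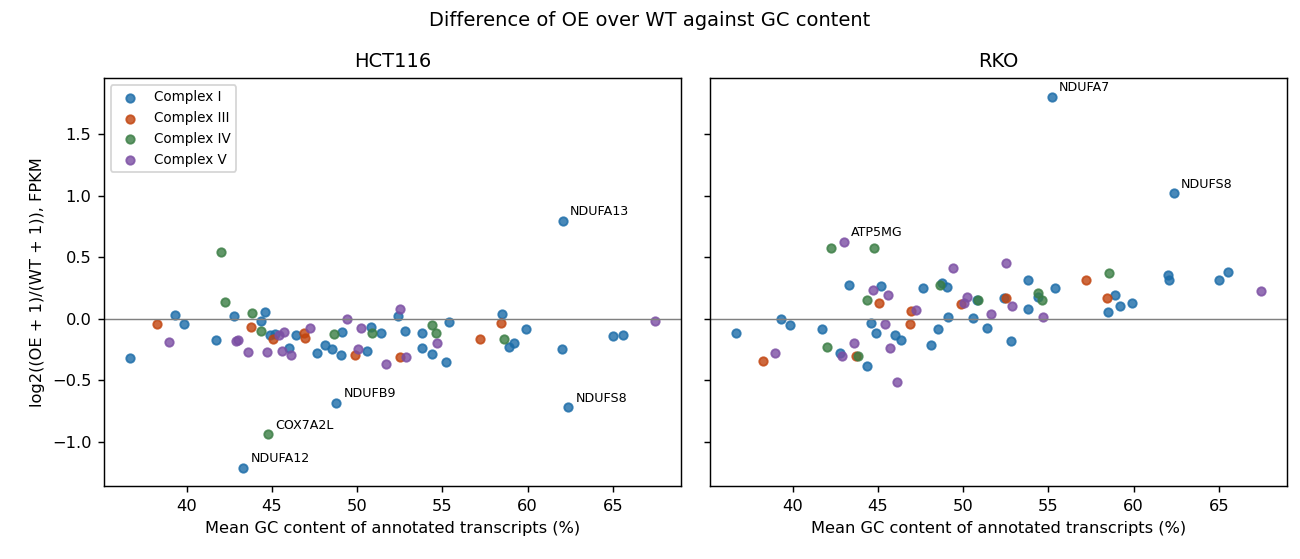
Difference of OE over WT, log2((OE + 1)/(WT + 1)) of FPKM, against the mean GC content of annotated transcripts in percent, for the 74 measured genes in HCT116 (left) and RKO (right), coloured by complex. In RKO the points climb with GC content (Spearman 0.51), and in HCT116 they do not (-0.06).

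Related copies and neighbours set limits on single genes. Besides the 81 genes, 94 loci fit the name patterns without being protein-coding, and 4 of them (ATP5MC2P4, COX6A1P2, COX7CP1 and UQCRFS1P1) reached 1 FPKM. COX6A1P2 was the highest, at 12.2 and 12.9 FPKM in HCT116 OE and WT and at 11.3 and 13.1 FPKM in RKO OE and WT. Reads of such copies and of their parent genes may have been divided uncertainly. Exons of 41 of the 81 genes overlap those of another gene by at least 50 bases, 25 of them on the same strand. A same-strand partner that reached 1 FPKM in at least 1 library of the line was found for 6 genes in HCT116 and 8 in RKO.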

How the data were processed

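Poly(A) RNA was isolated from Trizol extracts for paired-end sequencing, per the labels' protocols. The protocol text speaks of adipose RNA although the labels name colorectal lines, so how far it describes these samples is unsettled. For either line, a deposited table lists the FPKM of every gene in the OE and WT libraries. Its fold ratio, log2 fold, p-value and q-value were deposited by the authors as their own comparison of OE with WT. StringTie 1.3.0, HISAT2 2.0, Bowtie 0.12.2 and the genome build mm8, a mouse build, are named in the submitters' processing notes. Identifiers in the tables are human, so the build used is unsettled. Which of these tools aligned the reads was not given in the sources used here. Groups were taken from the sample titles.

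GENCODE release 29 (GRCh38) gave coordinates, transcript lengths and GC content. It holds 58394 of the 60612 identifiers and all 81 members. FPKM carries no counts, so depth was inferred: among genes with 1 exon and at least 400 bases, the most frequent product of FPKM and length was read as 1 fragment. That gave 0.0482, 0.0537, 0.0509 and 0.0488 FPKM for 1 fragment on 1 kilobase in HCT116 OE, HCT116 WT, RKO OE and RKO WT, or 7.34e+06 to 8.40e+06 estimated fragments per library. Of values up to 5 fragments, 43.4% to 44.6% lay within 2% of a whole or midway step, so no count test was run. Counting intervals are exact conditional (Clopper-Pearson) intervals at 95%. Reads carry no molecular identifiers, so the intervals may be too narrow.

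Differences were log2((OE + 1)/(WT + 1)) with a pseudocount of 1 FPKM, counted from a mean of at least 1 FPKM and 1.5-fold. The fit over both lines used limma 3.58.1 (R 4.3.3) on log2(FPKM + 1), with line and genotype as terms, a prior that follows the mean level and Benjamini-Hochberg adjustment over all genes tested, two-sided. It has 1 residual degree of freedom and a median of 12.0 prior degrees of freedom, so its errors rest mostly on spread pooled over genes. It was tested on simulated data with the same change in both lines and with noise of the pooled spread only. The correction for GC content and length was fitted over all genes in each line. Exons were counted as overlapping from 50 shared bases. Motifs were searched on both strands of RefSeq promoters (GRCh38.p14), and members were matched by symbol or synonym.

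The members, gene lists, motifs and comparisons were chosen with earlier results of these data known. Every member may be named, with values in all libraries for the 3 highest and 3 lowest differences and the 3 highest levels of each complex, for members past 1.5-fold and for isoform families. Other settings tried were the pseudocount, the low-value filter, the fold, the scaling, the GC and length correction, the prior and the line term. The sums with readthrough genes were added after the data were seen. Leaving out a library was not possible within a line, and leaving out a line leaves the other line's values. Some results of single members are not reported here.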

Additional observations from a re-analysis of the deposited data

Results flagged for a closer look

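For 3 genes, the folds of OE over WT lay past 0.32 on the log2 scale in opposite directions in HCT116 and RKO, with counting intervals on opposite sides of 1, where 6.51% of the 9874 genes with intervals in both lines had this. That is 4.05% of the 74 members, below the share of all genes. With 1 library per group, the difference between the lines was not tested for any of them. NDUFA7 had the widest gap, 2.16 on the log2 scale (difference in RKO minus difference in HCT116), and in RKO WT its readthrough gene AC010323.1 was the high one of the pair. Summed with that gene, its difference in RKO was -0.79. NDUFS8, a core iron-sulfur subunit of complex I, had a gap of 1.74. COX7A2L, which helps to join complexes III and IV, had a gap of 1.51.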

How the results depend on the processing

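Under every setting tried, members below 0 in HCT116 numbered 57 to 65, where 43.0% to 57.9% of all genes were. Their median stayed between -0.14 and -0.08 in HCT116 and between 0.07 and 0.22 in RKO. The median of all genes moved as well, between -0.041 and 0.038 in HCT116 and between -0.13 and 0.004 in RKO. Counts past the fold moved more. Members higher in HCT116 OE numbered 2 with the threshold lowered to 0.32 on the log2 scale (10.5% of all genes), 0 with it raised to 1 (1.02%), 2 with quantile normalization (3.36%) and 0 with readthrough genes summed, without or with the GC and length correction (3.26% and 3.34%). Members lower in HCT116 OE numbered 1 with the threshold raised to 1 (1.02%). Members higher in RKO OE numbered 10 at the lowered threshold (13.4% of all genes), 5 with a pseudocount of 0.1 (6.14%), with centring on the median of all genes (6.24%), with quantile normalization (5.12%) and with the GC and length correction (4.06%), and 2 with the threshold raised to 1 (1.3%), with mitochondrially encoded genes left out of the total (3.50%) and with readthrough genes summed (4.10%). Members lower in RKO OE numbered 3 at the lowered threshold (27.0% of all genes) and 1 with readthrough genes summed, without or with that correction (8.44% and 4.07%). Between lines, 3 members were higher in RKO with mitochondrially encoded genes left out of the total (9.39% of all genes), 3 with quantile normalization (12.3%) and 4 with readthrough genes summed (12.4%). With the threshold raised to 1 there were 0 higher in HCT116 (7.23%) and 0 higher in RKO (5.88%). The direction reversed for NDUFA7 in RKO (-0.79) and NDUFA13 in HCT116 (-0.37) when summed with their readthrough genes, which follows from the sums.

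Genes past the limma threshold numbered 7 with a pseudocount of 0.1, 0 without a filter, 3 from 5 FPKM, 1 with quantile normalization and 18 with the median difference subtracted, against 14. The labels give no replicate numbers. In the fit reported, the line term pairs the libraries of a line as a block, with 1 residual degree of freedom, and without this block 0 genes passed and 0 members had an unadjusted p under 0.05. Members past the threshold numbered 0 under each limma setting, and the causes of these changes were not tested. Depth limits members near 1 FPKM, where 3 fragments on 1 kilobase are worth 0.145 to 0.161 FPKM.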

Other observations

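Genes around the subunits were read from lists chosen with earlier results known. The subunits outside the name patterns and cytochrome c had 0 of 4 measured genes above 0 in HCT116 (median -0.26) and 3 of 4 in RKO (median 0.24). CYC1, cytochrome c1 of complex III, was at 119 FPKM in HCT116 OE, against 149 FPKM in HCT116 WT, and at 78.9 FPKM in RKO OE, against 62.04 FPKM in RKO WT. COX4I1, the main COX4 isoform, was at 50.5 and 54.0 FPKM in HCT116 OE and WT, and at 64.3 FPKM in RKO OE, against 47.3 FPKM in RKO WT. CYCS, cytochrome c itself, was at 28.9 and 33.5 FPKM in HCT116 OE and WT and at 18.2 and 21.1 FPKM in RKO OE and WT. Complex II, whose subunits are all nuclear, had 3 of 4 genes below 0 in each line, with medians of -0.06 in HCT116 and -0.08 in RKO. SDHB, its iron-sulfur subunit, was at 43.0 FPKM in HCT116 OE, against 56.0 FPKM in HCT116 WT, and at 41.2 and 40.9 FPKM in RKO OE and WT. The 13 mitochondrially encoded subunits had medians of 0.01 in HCT116 and -0.11 in RKO, where the nuclear subunits had -0.13 and 0.13. Of these 13, 7 were above 0 in HCT116 and 5 in RKO. MT-CO3 had the highest difference of them in RKO. It was at 22460 FPKM in HCT116 OE, against 21119 FPKM in HCT116 WT. In RKO it was at 9423 FPKM in OE, against 6585 FPKM in WT. MT-ATP6 had the lowest difference of them in RKO. It was at 7717 FPKM in HCT116 OE, against 7305 FPKM in HCT116 WT. In RKO it was at 16360 FPKM in OE, against 20777 FPKM in WT.

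Assembly factors build the complexes but stay out of them. In RKO, factors of complex I had 3 of 15 measured genes above 0 (median -0.11), those of complex III 3 of 6 (median 0.07), those of complex IV 9 of 21 (median -0.05) and those of complex V 2 of 5 (median -0.25), where 40.7% of all genes were above 0 (median -0.09). In HCT116 the medians for complexes I, III, IV and V were -0.09, -0.02, -0.10 and 0.02, against 0.01 for all genes. TIMMDC1, a complex I assembly factor, was at 11.8 and 11.7 FPKM in HCT116 OE and WT and at 10.7 FPKM in RKO OE, against 19.2 FPKM in RKO WT. SCO2, which delivers copper to complex IV, was at 2.41 and 2.12 FPKM in HCT116 OE and WT and at 4.41 FPKM in RKO OE, against 2.15 FPKM in RKO WT. Of regulators of mitochondrial genes, 7 of 11 measured were above 0 in HCT116 (median 0.08) and 5 of 11 in RKO (median -0.001). YY1 had the lowest difference of them in HCT116. It was at 7.40 FPKM in HCT116 OE, against 12.4 FPKM in HCT116 WT, and at 6.93 FPKM in both RKO libraries. TFB1M, with the highest difference in HCT116, was at 6.38 and 5.06 FPKM in HCT116 OE and WT. ESRRA and GABPB1 had the highest and the lowest difference in RKO. They were at 23.1 and 3.62 FPKM in RKO OE, against 16.8 and 5.46 FPKM in RKO WT. NRF1 was at 6.74 and 6.01 FPKM in HCT116 OE and WT and at 5.26 and 5.19 FPKM in RKO OE and WT, and the coactivator PPARGC1A was listed at 0.0001 FPKM in all 4 libraries. The carrier SLC25A6, which exchanges ADP for ATP, was at 254 and 249 FPKM in HCT116 OE and WT and at 632 FPKM in RKO OE, against 432 FPKM in RKO WT.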
